A study of Mus musculus with 25 samples.

Results

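The brain of C57BL/6J mice was set against 3 other tissues of that strain: gonadal white adipose tissue, the gastrocnemius (a calf muscle) and liver. The arrays were chosen by strain and tissue label alone, which took 12 of the 25 arrays of the series, 3 for each of the 4 tissues. The remaining arrays are of B6.C-D7Mit353, a lean congenic strain homozygous for a chromosome segment of another strain on the C57BL/6J background. C57BL/6J, written B6 here, is the background strain and carries no introduced allele or treatment, and the labels used here give no age or sex. Each array carried labelled cRNA of 1 tissue sample and was read by chemiluminescence in 1 colour, with 1 brightness value per probe. The study's design calls the arrays of a tissue biological triplicates.

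Brain tissue is built from neurons, which signal through regulated release of transmitters and peptides, and from glia, which insulate axons, clear transmitters and survey for damage. Its transcript repertoire is known to be broad, because many cell types and regions are mixed in a whole-tissue extract. The brain is also known to run mainly on glucose or ketone bodies, and to use little long-chain fatty acid as fuel, in contrast to liver, fat and muscle.

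The labels were first set against defining markers. A probe counted as detected on an array when its deposited signal to noise ratio was at least 3. On all 3 brain arrays the neuronal genes Syt1, Syn1 and Nefl, the myelin genes Mbp and Mog and the astrocyte transporters Slc1a2 and Slc1a3 were detected. Slc1a2 was also detected on all 3 liver arrays and Slc1a3 on all 3 adipose arrays, so neither separated brain from the rest. By detection Syt1 did not either, being detected on all 3 arrays of each other tissue. Its means there were 10.15 to 11.71, against 15.68 in brain. Mbp was detected on all 3 gastrocnemius and 2 adipose arrays, Syn1 on 1 liver and 2 adipose arrays, and Mog on 1 adipose array. Nefl was detected in brain alone. The single probe for Snap25, a core protein of synaptic vesicle fusion, was detected on 0 of 12 arrays and therefore says nothing about that gene. Probes for Rbfox3, Mobp, Gfap and Aqp4 are not named here. Of the hepatocyte genes, Apoa1 and Fga were detected on 0 of 3 brain arrays and Alb on 1. Of the muscle genes, Ckm and Tnni2 were detected on 0 of 3, while the skeletal actin Acta1 was detected on all 3 at a mean of 13.70 on the normalized log2 intensity scale, against 21.31 in gastrocnemius. The adipocyte coat protein gene Plin1 was detected on 1 of 3 brain arrays.

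Brain and adipose arrays detected the most probes. Of 32996 probes, 17049 to 17925 were detected on the brain arrays and 17547 to 18236 on the adipose arrays, against 13279 to 14544 in liver and 13115 to 14371 in gastrocnemius. The brain and adipose arrays were also the brighter ones. Median raw signals were 1071 to 1232 in brain, 744 to 952 in adipose, 322 to 471 in liver and 499 to 570 in gastrocnemius. The part of array brightness in the detection counts was not tested. Over the 21134 probes detected on at least 3 of the 12 arrays, Pearson correlations among brain arrays were 0.973 to 0.976, the tightest of the 4 tissues. Brain correlated with liver at 0.513 to 0.541, with gastrocnemius at 0.632 to 0.662 and with adipose at 0.640 to 0.659, while the other tissues correlated with each other at 0.632 to 0.765. These correlations run across probes, which are not independent, and describe the arrays without a test. The brain samples carry sample codes of another form than the other tissues, so any difference in how brain was collected or processed cannot be told apart from tissue. The p-values below measure the spread between these few samples, and 3 arrays a tissue bound their precision.

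Most tested probes differed between brain and the mean of the other tissues. At an adjusted p under 0.05 in limma, 5847 of 21134 probes were higher in brain, 27.7 percent, and 6276 were lower, 29.7 percent. A stricter reading asked that brain differ from liver, adipose and gastrocnemius each, in 1 direction. By that rule 3144 probes, 14.9 percent, were above each other tissue and 1792, 8.48 percent, were below each. On 3863 probes, 18.3 percent, all 3 brain arrays lay above all 9 others, and on 2303, 10.9 percent, all lay below. By pairs of tissues, 6459 probes were higher and 5403 lower than in liver, 5098 and 5306 than in adipose, and 5551 and 5344 than in gastrocnemius.

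Counted by named gene, with 1 probe each, 10731 genes were tested. Of these, 2948 were higher in brain than the mean of the others, 27.5 percent, and 3701 were lower, 34.5 percent. Brain was above each other tissue for 1571 genes, 14.6 percent, of which 1295 by at least 2-fold. It was below each for 1129 genes, 10.5 percent, of which 756 by at least 2-fold. All brain arrays lay above all others for 1925 genes, 17.9 percent, and below for 1411, 13.1 percent. The median gene sat 0.19 log2 units lower in brain. That median and the shares of all tested genes above are the levels against which each gene group below is read. In addition 270 genes passed the detection filter through brain arrays alone and 264 of these were called higher, as the filter itself favours. In bulk tissue, fewer cells of a type and less RNA per cell cannot be told apart, and every difference below is per amount of RNA.

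Among the 10 genes that stood furthest above the highest other tissue were Chgb, Sst, Nefl and Cplx1. Chgb encodes chromogranin B, a granin of dense-core vesicles, and measured 18.36, 18.44 and 18.18 on the brain arrays and 7.01 to 9.49 on the other 9. It was at least 863-fold above gastrocnemius, the highest other tissue, where no array detected it. Here and below, "at least" marks a tissue where a probe was detected on no array. The fold there was taken over each array's weakest detected signal, or over the probe's value where that was stronger. For Chgb, Sst and Nefl the probe's own value was the stronger. Such folds rest on signals under the detection threshold and are approximate, not strict lower bounds. Differences in log2 units are fitted values throughout. For genes that no other array detected (of those named with a difference, Sst, Nefl, Cplx1, Icam5, Syt4, Dlgap2, Gad2, Gabra2, Chrna4, Trh, Scg2, Pcsk1, Elavl4, Myt1l, Tbr1, Neurod6, Cbln1, Slc17a6, Gpr37, Nkx6-2, Slco1c1 and Kcne2) they rest on signals under the detection threshold, so neither their size nor their order is exact. Such genes also passed the filter through brain alone. The difference of Chgb from the mean of the others was 10.29 ± 0.33 (SE, n = 3 against 9) with an adjusted p of 1.8e-11 in limma.

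Sst, the gene of the inhibitory peptide somatostatin, measured 18.39, 18.43 and 18.53 in brain and 7.47 to 9.68 elsewhere, at least 691-fold above liver. Nefl, the light neurofilament subunit, measured 17.65, 17.73 and 17.57 in brain and 7.66 to 8.61 elsewhere, at least 616-fold above gastrocnemius. Cplx1, encoding complexin 1, which clamps and triggers vesicle fusion, measured 17.51, 17.57 and 17.08 in brain and 6.86 to 8.59 elsewhere. For each of these genes the lowest brain array lay more than 8 log2 units above the highest other array.

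Among the 10 leading genes, Pcp4, a calmodulin-binding peptide gene, was 828-fold above adipose, where 1 of 3 arrays detected it. Stmn3, a stathmin that regulates microtubules, was 717-fold above adipose, also detected there on 1 array. Icam5, encoding telencephalin, an adhesion protein of forebrain dendrites, was at least 674-fold above gastrocnemius. Nrsn1, encoding the neuronal vesicle protein neurensin 1, was 664-fold above liver, where 1 array detected it. Cplx1 was at least 634-fold above gastrocnemius, Cpne6, a calcium-dependent membrane-binding copine gene, was 457-fold above liver, and AI593442, a transcript known by its database symbol, was at least 454-fold above adipose.

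Among the 10 genes furthest below the lowest other tissue were Car3, Ces1d and Adh1. Car3, carbonic anhydrase 3, measured 9.59, 9.62 and 9.63 in brain, 15.13 to 16.93 in liver, 17.73 to 18.52 in gastrocnemius and 20.11 to 20.20 in adipose, so that brain was 92.6-fold under liver, the lowest other tissue. Ces1d, a carboxylesterase gene, was 83.2-fold under gastrocnemius, with brain values of 8.88, 8.98 and 6.80. Adh1, alcohol dehydrogenase 1, measured 9.83, 9.21 and 9.11 in brain and at least 14.72 on every other array, 47.8-fold lower than in gastrocnemius. None of the brain arrays overlapped any other array for these genes.

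The other genes furthest below the lowest other tissue were Plbd1 by 58.0-fold, Steap4, a metalloreductase gene, by at least 45.6-fold, Inmt, a methyltransferase gene, by 27.5-fold, and Plin5, a lipid droplet protein gene, by 26.0-fold. They were followed by Cd36, the fatty acid translocase gene, by 25.2-fold, Depp1 by at least 21.6-fold, and the solute carrier gene Slc43a3 by 20.8-fold. Brain detection of these genes was patchy, with all 3 arrays for Inmt and Slc43a3, 2 for Car3, Ces1d and Plin5, 1 for Plbd1, Adh1 and Cd36, and 0 for Steap4 and Depp1. The plot of leading genes by array shows both sets.

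**Figure D1:**
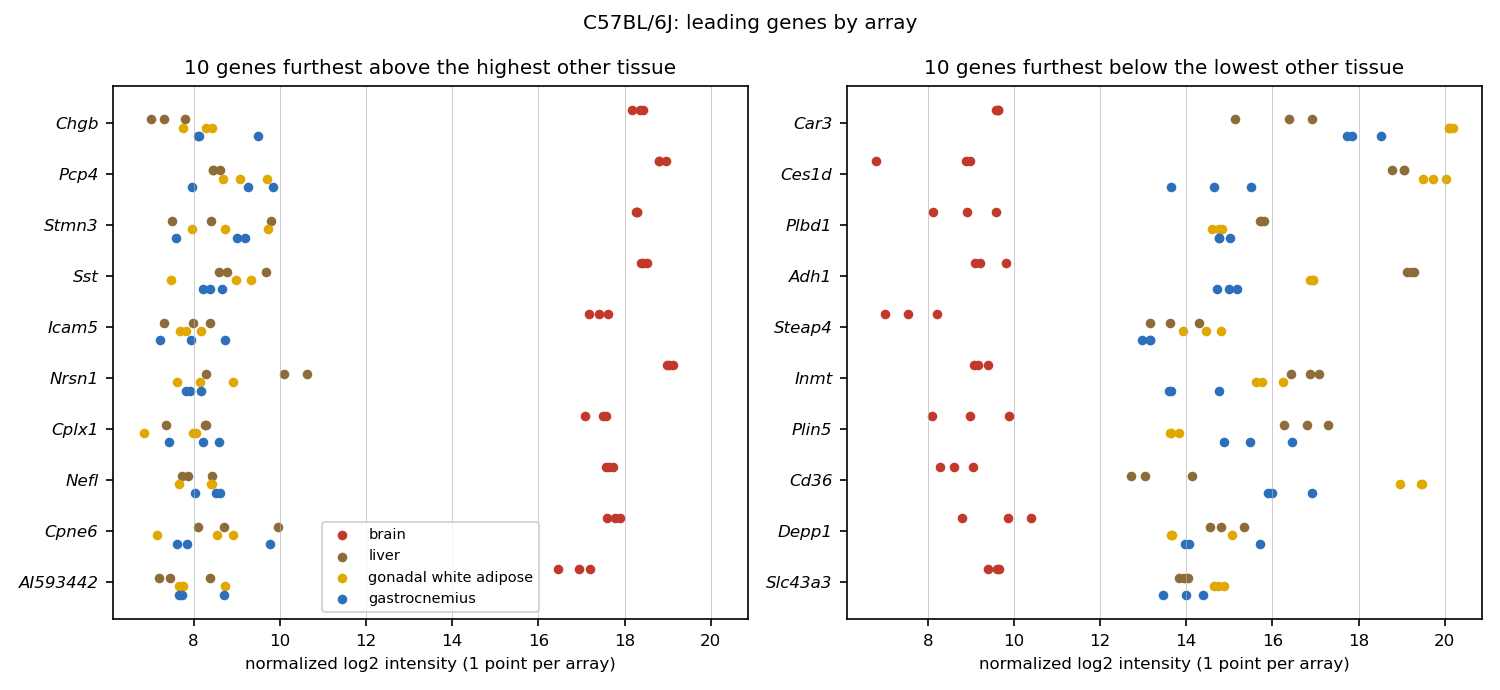
Normalized log2 intensity (x axis) of the 10 genes furthest above the highest other tissue (left) and the 10 furthest below the lowest other tissue (right) in C57BL/6J, 1 point per array and 3 arrays per tissue. The red brain points lie apart from the points of all 9 other arrays for every gene shown.

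Genes of transmitter release were almost uniformly higher in brain. Of 34 tested genes of synaptic vesicle release, 32 were higher than the mean of the other tissues, 1 was lower and 1 was not called, with 31 above each tissue. The median difference was 4.73 log2 units, against -0.19 over all tested genes, and 6 of the 34 were detected on brain arrays only. List medians depend on which genes can be tested, and not only on genes detected in brain alone. Of 45 lists, 25 moved by over 1.5 times in the deposited matrix, which is blank below detection. There a probe was tested only with a value in every tissue and on at least 6 arrays. Where detection on 6 arrays was required, 15 lists moved that far. Those values are given below as the matrix median and the 6-array median where they moved that far. The vesicle glycoprotein gene Sv2a was higher by 8.14 ± 0.38 (SE) and the vesicle membrane gene Synpr by 7.83 ± 0.70. Cplx1 and Syt4, a calcium sensor relative, had fitted differences of 9.49 ± 0.37 and 8.58 ± 0.34, and no array of another tissue detected them. Sypl2, a synaptophysin relative known from skeletal muscle, was the exception at -1.65 ± 0.43, with a mean of 15.13 in gastrocnemius and 8.99 in brain.

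Genes listed mostly for the receiving side of the synapse followed the same direction. Of 24 tested genes of the postsynaptic scaffold and calcium signalling, 23 were higher, 0 lower and 1 not called. Their median was 3.96, and 3 were detected on brain arrays only. Icam5 was higher by 9.48 ± 0.35 log2 units, Nrgn, the calmodulin-binding neurogranin gene, by 9.38 ± 0.62, the presynaptic adhesion gene Nrxn3 by 7.21 ± 0.27 and the scaffold gene Dlgap2 by 5.49 ± 0.47. Nrgn measured 18.93 to 19.02 in brain, while the adipose arrays spread from 8.42 to 12.58.

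Receptors and transporters for the main excitatory transmitter were also higher. Of 18 tested glutamate genes, 15 were higher, 1 lower and 2 not called, with a median of 3.19, and 3 were detected on brain arrays only. Gria1 and Gria2, subunits of the fast AMPA receptor, were higher by 8.66 ± 0.32 and 8.38 ± 0.54 log2 units, the metabotropic receptor gene Grm3 by 6.27 ± 0.39 and Gria3 by 5.74 ± 0.50. Gria1 measured 17.58, 17.23 and 17.29 in brain and 7.78 to 9.39 elsewhere. Grin2d, an NMDA receptor subunit gene, was lower, at -1.82 ± 0.50, and was detected on all 12 arrays with a mean of 9.46 in brain.

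Inhibitory transmission gave a similar picture. Of 16 tested genes of the GABA and glycine system, 14 were higher, 0 lower and 2 not called, with a median of 4.51 and a matrix median of 2.62, and 5 were detected on brain arrays only. Gad1 and Gad2, the enzymes that make GABA, were higher by 8.68 ± 0.35 and 7.83 ± 0.36 log2 units. Slc32a1, the transporter that loads GABA and glycine into vesicles, was higher by 7.38 ± 0.43, and the receptor subunit gene Gabra2 by 6.03 ± 0.28. Gad1 measured 18.04, 18.13 and 17.78 in brain, and 7.74 to 9.96 on the other arrays.

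The monoamine and acetylcholine system behaved less uniformly. Of 21 tested genes, 10 were higher, 3 lower and 8 not called, and the median was 0.63, with a matrix median of 0.35. Receptors led, with the dopamine receptor gene Drd1 higher by 5.06 ± 0.41 log2 units, the nicotinic subunit Chrna4 by 3.49 ± 0.42, the histamine receptor Hrh3 by 3.29 ± 0.21 and the muscarinic receptor Chrm1 by 3.27 ± 0.45. Members lower in brain were the vesicular acetylcholine transporter Slc18a3 at -0.89 ± 0.26, Maob, a monoamine oxidase high in liver, at -1.09 ± 0.19, and the noradrenaline transporter Slc6a2 at -1.53 ± 0.47. Slc6a2 had a mean of 13.16 in adipose and 8.34 in brain, where 1 array detected it, and it was no longer called without brain array 2 (log2 difference -0.87, adjusted p 0.124 in limma).

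Neuropeptides, granins and their processing enzymes were mostly above every other tissue. Of 28 tested genes, 27 were higher, 0 lower and 1 not called, 26 were above each other tissue, and the median was 4.93. Detection on brain arrays only held for 7 of the 28, so the filter favoured their calls. Beside Chgb and Sst, Scg5, a chaperone of prohormone processing, was higher by 9.17 ± 0.24 log2 units and the peptide gene Tac1 by 7.04 ± 0.40. Hypothalamic peptides that few neurons make were detected as well, with Oxt, the oxytocin gene, higher by 4.53 ± 0.50, Cartpt by 4.41 ± 0.46 and the thyrotropin-releasing hormone gene Trh by 4.15 ± 0.40. Oxt was detected on all 3 adipose arrays and 1 gastrocnemius array too.

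Several genes of this group are textbook targets of cAMP signalling through the cAMP response element, whose letters are TGACGTCA and read the same on both strands. The full-length promoter windows of RefSeq on the GRCm38.p6 assembly, 250 bases before to 50 after the start, were searched for it. Those of 1 chromosome were left out, and "all windows" below means all that were searched. It occurred in 5 of the 27 windows of tested neuropeptide genes, 18.5 percent, against 1.79 percent of all 32851 windows, 2.69 percent of windows of tested genes and 3.49 percent of windows of genes above each other tissue. Of windows of other lists it occurred in 2 of 36 for synaptic vesicle release and 1 of 27 for neuronal cytoskeleton and axon. Glutamate had 0 of 13, GABA and glycine 0 of 20, oligodendrocytes 0 of 20 and fatty acid oxidation 0 of 25. A second motif, the left part of the RE1 element, was also searched. It occurred in 1 of the 27 neuropeptide windows, 3.7 percent, against 0.371 percent of all windows. These windows share genes and families, and the shares are a description only. The 5 neuropeptide genes that hold the cAMP response element are shown because they carry it at differing distances from the start. Each line gives the 120 bases before the start on the gene's strand, with the element in capitals.

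Chgb: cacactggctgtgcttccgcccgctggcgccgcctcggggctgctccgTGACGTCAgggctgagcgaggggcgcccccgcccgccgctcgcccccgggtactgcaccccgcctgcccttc
Sst: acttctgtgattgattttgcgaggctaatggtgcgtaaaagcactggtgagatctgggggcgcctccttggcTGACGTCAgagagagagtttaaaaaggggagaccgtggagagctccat
Scg2: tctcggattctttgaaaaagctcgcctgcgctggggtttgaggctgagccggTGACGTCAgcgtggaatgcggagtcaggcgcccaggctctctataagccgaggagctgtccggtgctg
Pcsk1: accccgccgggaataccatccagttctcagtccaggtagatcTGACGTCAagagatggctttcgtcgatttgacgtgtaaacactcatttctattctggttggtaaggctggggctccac
Cartpt: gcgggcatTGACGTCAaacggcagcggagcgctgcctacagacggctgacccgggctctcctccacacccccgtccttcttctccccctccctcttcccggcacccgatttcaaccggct

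These stretches lie at chr2:132781522-132781641 on the plus strand for Chgb, chr16:23890845-23890964 on the minus strand for Sst, chr1:79440027-79440146 on the minus strand for Scg2, chr13:75089737-75089856 on the plus strand for Pcsk1 and chr13:99900684-99900803 on the minus strand for Cartpt. The element begins 72 bases before the start in Chgb, 48 in Sst, 68 in Scg2, 78 in Pcsk1 and 112 in Cartpt. The genes differed widely in brain, with Chgb 10.29, Sst 9.77 and Cartpt 4.41 log2 units above the mean of the other tissues. Scg2, the secretogranin II gene, was higher by 6.52 ± 0.37 and Pcsk1, a prohormone convertase gene, by 1.93 ± 0.41. Scg2 and Pcsk1 are named for the motif, after their values were seen.

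Ion channels and the structural proteins of the axon were next. Of 11 tested genes of voltage-gated sodium and calcium channels, 8 were higher, 0 lower and 3 not called, with a median of 2.64 and a matrix median of 0.20. The accessory subunits Cacna2d3 and Cacnb4 were higher by 5.91 ± 0.43 and 5.64 ± 0.39 log2 units, the sodium channel Scn8a by 3.66 ± 0.37 and the low-voltage calcium channel Cacna1h by 3.41 ± 0.48. Of 31 tested genes of the neuronal cytoskeleton and axon, 30 were higher and 1 was lower, with a median of 5.60, and 9 were detected on brain arrays only. The matrix median was 2.29. Stmn3 was higher by 9.63 ± 0.47, Nefl by 9.46 ± 0.28, the axonal adhesion gene Cntn1 by 8.97 ± 0.38 and the intermediate filament gene Ina by 8.39 ± 0.45. Cntnap1, a partner of contactin at the nodes of myelinated axons, was lower than in each other tissue, at -2.60 ± 0.43.

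Regulators of neuronal RNA and transcription were higher with some exceptions. Of 14 tested RNA-binding and splicing genes, 13 were higher, 0 lower and 1 not called, with a median of 2.10. Elavl4 was higher by 8.63 ± 0.44 log2 units, Celf4 by 8.29 ± 0.38 and Celf6 by 4.91 ± 0.60. Rbfox1, a splicing regulator of excitable tissue, was high in both brain, at 17.15, 17.49 and 17.46, and gastrocnemius, at 17.03, 16.66 and 17.21. The brain and gastrocnemius values overlapped, and Rbfox1 was not above each tissue although it exceeded the mean by 6.56 ± 0.22.

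Of 25 tested neural transcription factors, 19 were higher, 1 lower and 5 not called, with a median of 3.69, and 8 were detected on brain arrays only. The 6-array median was 1.19 and the matrix median 0.44. Myt1l, a repressor of non-neuronal programmes, was higher by 8.12 ± 0.32 log2 units, the cortical factors Tbr1 and Neurod6 by 7.64 ± 0.45 and 7.28 ± 0.30 and Bcl11b by 7.12 ± 0.36. Otx1 was lower, at -1.80 ± 0.24, with a mean of 14.91 in gastrocnemius.

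Lists of brain region markers were mostly higher as well, without showing which regions the extracts held, since each list shares members with others. The 10 tested striatal genes had a median of 5.11, with 9 higher and 1 not called, including Tac1 at 7.04 ± 0.40, the dopamine-regulated phosphatase inhibitor Ppp1r1b at 6.25 ± 0.22, Rgs9 at 6.09 ± 0.35 and Pde1b at 5.51 ± 0.28. Of 18 genes of cortex and hippocampus 15 were higher and 3 not called, with a median of 2.37, and Etv1 and Ccn3 both differed by 4.31 log2 units. Of 10 cerebellar genes 6 were higher, 1 lower and 3 not called, with a median of 2.77, a 6-array median of 0.65 and a matrix median of -0.10. They included Calb1 at 5.93 ± 0.54, Cbln1 at 4.99 ± 0.49 and Gng13 at 4.96 ± 0.37. Brain arrays alone detected 2 of the 10 cerebellar genes and 2 of the 18 genes of cortex and hippocampus.

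Of 9 thalamic genes 7 were higher, with Calb2 at 5.67 ± 0.46 and Slc17a6, a vesicular glutamate transporter gene, at 5.55 ± 0.35, and 3 of the 9 were detected on brain arrays only. The thalamic median was 3.70, and the 6-array and matrix medians were -0.12 and -0.01. It was 3.13 with undetected tissues raised to the weakest detected signal where they lay below it. Of 15 hypothalamic genes 11 were higher and 1 lower, with a median of 2.21 and a matrix median of 0.72, and 6 were detected on brain arrays only. The lower gene was Lepr, the leptin receptor, which no brain array detected and which measured 12.96, 11.72 and 12.63 in liver. Of 10 genes of the olfactory bulb 7 were higher and 1 lower, and 2 were detected on brain arrays only. Their median was 2.45, with a 6-array median of 1.14 and a matrix median of 0.97. The factor Meis2 was higher by 5.19 ± 0.27, while Eomes was detected on no brain array and had a mean of 13.13 in liver.

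The hindbrain and spinal cord list, made mostly of Hox genes, moved the other way. All 11 tested members were lower in brain than the mean of the other tissues, with a median of -1.65, and 6 were detected on no brain array. Hoxb4 measured 8.46, 8.57 and 7.86 in brain and 15.43 to 15.69 in adipose, and was lower at -4.28 ± 0.34 log2 units. Hoxa5 was lower at -4.12 ± 0.42 and had means of 13.65 in adipose and 12.27 in gastrocnemius. Hox genes are known to be silent in the forebrain and to mark position along the body in other tissues.

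Most tested genes of oligodendrocytes and of astrocytes were higher as well. Of 16 tested genes of oligodendrocytes and myelin, 12 were higher, 2 lower and 2 not called, and 3 were detected on brain arrays only. Their median was 2.96, with a 6-array median of 1.74 and a matrix median of 0.53. Mbp, myelin basic protein, measured 17.23, 17.94 and 17.49 in brain and 11.55 to 12.35 in gastrocnemius, and differed from the mean of the others by 7.88 ± 0.28 log2 units. The receptor gene Gpr37 was higher by 6.04 ± 0.34, the factor Nkx6-2 by 4.40 ± 0.36 and the tight junction gene Cldn11 by 4.32 ± 0.33. The iron carrier Trf and the connexin Gjb1 were lower, at -1.88 ± 0.15 and -1.93 ± 0.30, and both peaked in liver, at means of 20.13 and 15.64. The oligodendrocyte precursor list was mixed, with 3 of 7 tested genes higher, 1 lower and 3 not called. Its median of 1.00 became -0.60 as the 6-array median and 0.63 in the matrix.

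Of 23 tested astrocyte genes, 18 were higher, 1 lower and 4 not called, with a median of 2.47, and 9 were above each other tissue. The 6-array median was 1.58 and the matrix median 0.61. Aldoc, the aldolase of astrocytes, was higher by 7.84 ± 0.38 log2 units, the GABA transporter Slc6a11 by 5.77 ± 0.39, the connexin Gjb6 by 5.70 ± 0.40 and the acyl-CoA synthetase Acsbg1 by 5.65 ± 0.29. Slc4a4, a bicarbonate transporter gene, was lower at -0.94 ± 0.17, with a mean of 14.77 in liver.

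Microglia are the resident macrophages of brain, and the other tissues hold macrophages of their own. Of 16 tested microglial genes 7 were higher, 0 lower and 9 not called. Their median was 1.00, with a 6-array median of 0.43 and a matrix median of 0.28. Above each other tissue were 2 of the 16, a share near the 14.6 percent of all tested genes. The 2 were Siglech, at 12.11, 11.95 and 11.97 in brain and up to 9.90 in adipose, and the purinergic receptor P2ry12, at 12.35, 12.07 and 11.73 in brain and up to 9.86 elsewhere.

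Vessel, ventricle and membrane genes were split. Of 17 genes of brain endothelium, 5 were higher, 6 lower and 6 not called, with a median of 0.67 and a matrix median of -0.39. Over all tested genes 27.5 percent were higher and 34.5 percent lower, and the endothelial shares were near these. Slco1c1, the thyroid hormone carrier of the blood-brain barrier, was higher by 3.52 ± 0.38 log2 units, and the barrier glucose transporter Slc2a1 by 1.40 ± 0.34. Pan-endothelial Pecam1 and Cdh5 were lower, at -2.49 ± 0.36 and -1.61 ± 0.30. Of 11 genes of choroid plexus and ependyma, 7 were higher, 2 lower and 2 not called, and 2 were detected on brain arrays only. Their median was 1.88, with a 6-array median of 0.82 and a matrix median of -0.02. Ttr, the transthyretin gene, measured 19.47, 19.49 and 19.43 in brain and 19.31 to 19.78 in liver, so these tissues overlapped, and 7.60 to 9.41 in the others. The potassium channel subunit Kcne2 was higher by 4.51 ± 0.40 and Sostdc1 by 4.24 ± 0.40. The water channel Aqp1 was lower at -5.38 ± 0.15 and below each other tissue.

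Of 9 meningeal genes 3 were higher and 4 lower, with a median of -0.49, a 6-array median of -1.79 and a matrix median of -1.22. Ptgds, prostaglandin D synthase, measured 20.54, 20.30 and 20.20 in brain and 18.57 to 18.85 in adipose, and was above each other tissue. Decorin, Dcn, was below each, at -4.07 ± 0.17 log2 units. Of 10 tested genes of brain extracellular matrix, 6 were higher and 4 not called, and 2 were detected on brain arrays only. Their median was 2.80 and the 6-array median 1.39. They included the proteoglycans Bcan at 5.61 ± 0.55 and Spock1 at 5.48 ± 0.35. General extracellular matrix went the other way. Of 23 tested genes 0 were higher, 21 lower and 2 not called, with a median of -2.15, and the fibrillar collagen Col3a1 was lower at -5.66 ± 0.51.

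**Figure D2:**
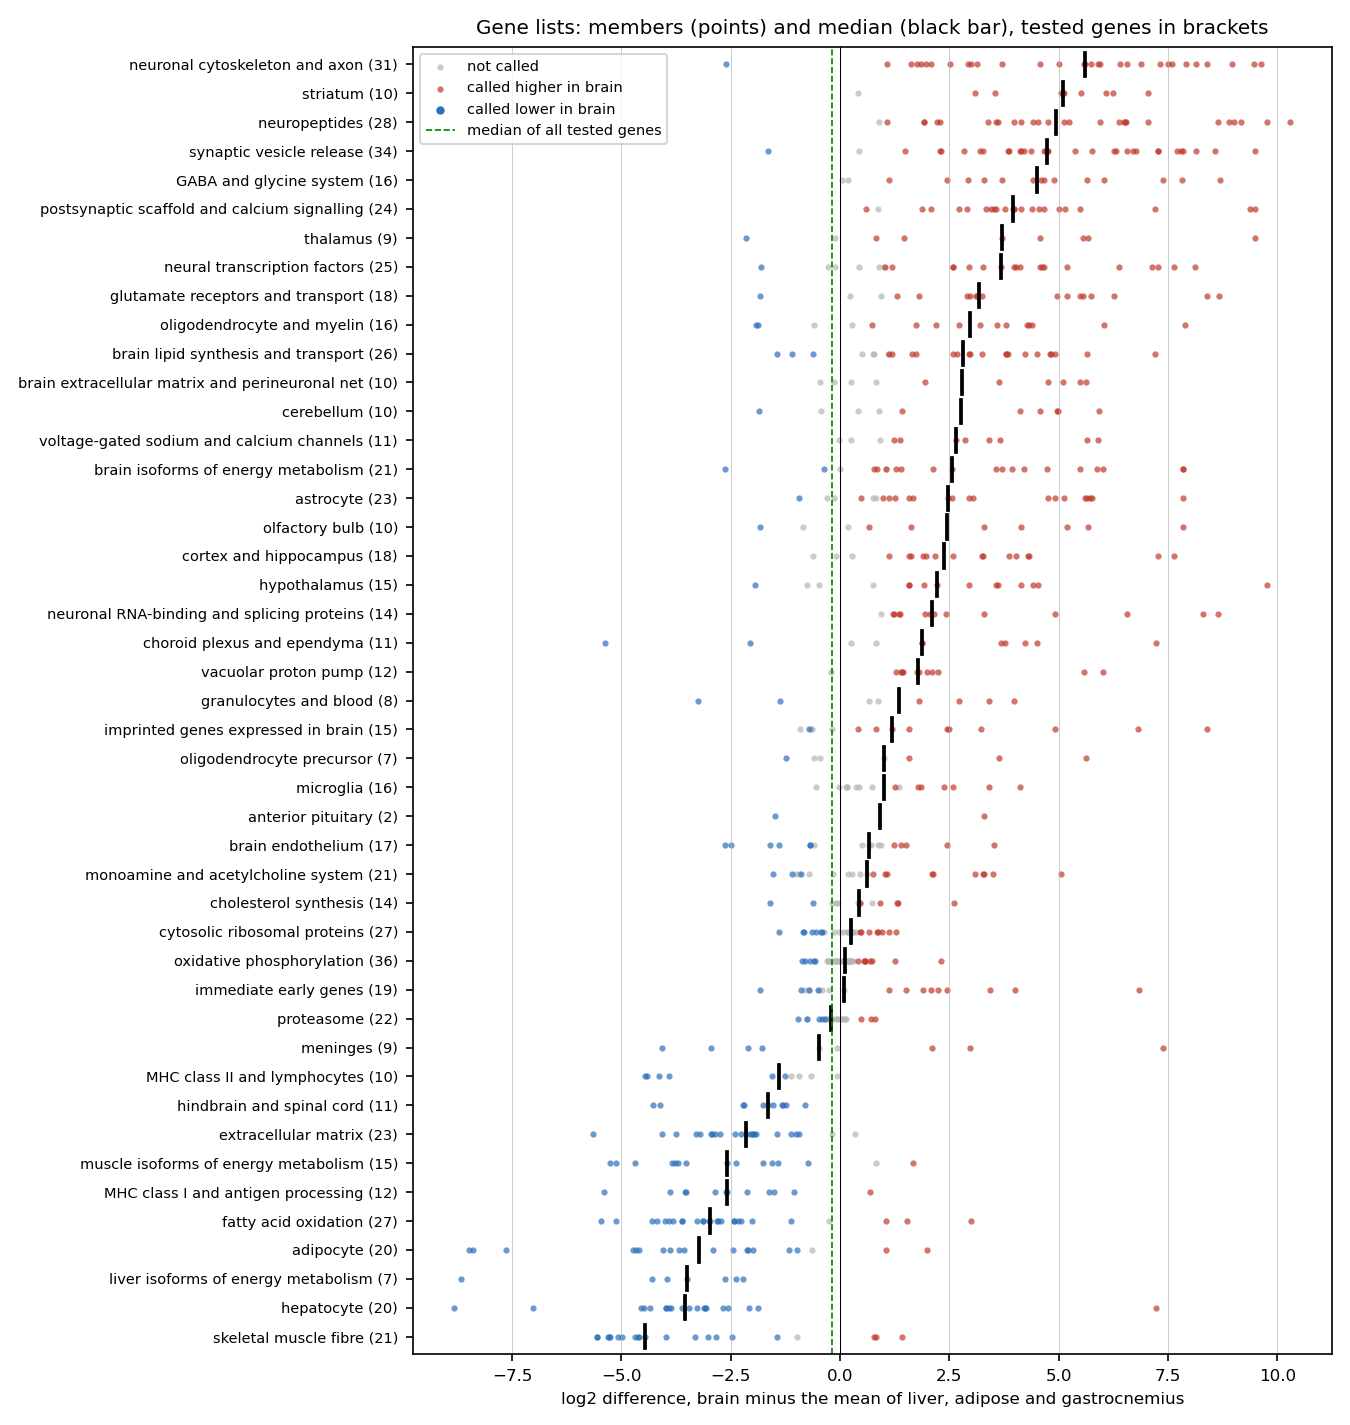
Log2 difference of brain minus the mean of liver, adipose and gastrocnemius (x axis) for each tested member (points) of the 45 gene lists, with the list median as a black bar, the number of tested genes in brackets and the median over all tested genes, -0.19, as a dashed line. Neuronal cytoskeleton (5.60), striatum (5.11) and neuropeptides (4.93) have the highest medians, and skeletal muscle fibre (-4.46) the lowest.

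Energy metabolism differed in which member of an enzyme family was high, shown in the plot of families by tissue. Every probe is compared across tissues and not with the probe of another gene. Of 21 tested genes listed as brain isoforms of energy metabolism, 17 were higher, 2 lower and 2 not called, with a median of 2.56 and a matrix median of 1.04. Eno2, the neuronal enolase, was higher by 7.85 ± 0.48 log2 units, and Eno3, the muscle enolase, was lower at -3.77 ± 0.16. Ckb, the brain creatine kinase, measured 19.92, 19.83 and 19.76 in brain, 15.87 to 16.79 in adipose, 13.01 to 14.01 in gastrocnemius and 12.12 to 12.20 in liver. The mitochondrial Ckmt1 was at least 23.8-fold above adipose. Ckm and Ckmt2, the muscle forms, were detected on no brain array and had gastrocnemius means of 20.39 and 19.67.

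Glycolytic entry followed the same division. Hk1 was 5.45-fold above adipose, the highest other tissue, while Hk2 was lower in brain at -3.52 ± 0.26 log2 units. Aldoc was 60.7-fold above adipose and Aldoa 1.93-fold above adipose, so both aldolases tested here were above each other tissue. Pfkp was 1.67-fold above adipose and Pgam1 2.25-fold above liver, while Pgam2 was lower than the mean of the others at -1.77 ± 0.31. Ldhb was 3.35-fold above gastrocnemius, and Ldha was lower at -1.55 ± 0.14. The glycogen phosphorylases Pygb, Pygl and Pygm had their highest means in brain at 15.46, liver at 16.38 and gastrocnemius at 20.06, in that order, and the brain and adipose means of Pygb, at 15.46 and 14.86, were not called apart in the rule for each tissue.

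The liver and muscle forms were lower as groups. Of 7 tested liver isoforms 7 were lower, with a median of -3.51, including Pck1, the gatekeeper of gluconeogenesis, at -8.67 ± 0.32 log2 units. Of 15 tested muscle isoforms 13 were lower, 1 higher and 1 not called, with a median of -2.58. That value was carried by gastrocnemius, with medians of -7.61 against it, -1.05 against adipose and 0.15 against liver. The liver forms had medians of -7.15 against liver, -2.28 against adipose and -0.51 against gastrocnemius. Slc2a4, the insulin-regulated glucose transporter, was lower at -3.84 ± 0.31. Slc16a1, a monocarboxylate transporter listed for brain endothelium and for brain and liver metabolism, was below each other tissue at -2.62 ± 0.26. Subunits of the vacuolar proton pump, which acidifies vesicles, were higher for 11 of 12 tested genes, with a median of 1.78. Atp6v1g2, a neuronal subunit, was higher by 6.02 ± 0.35 and Atp6v0e2 by 5.58 ± 0.31.

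**Figure D3:**
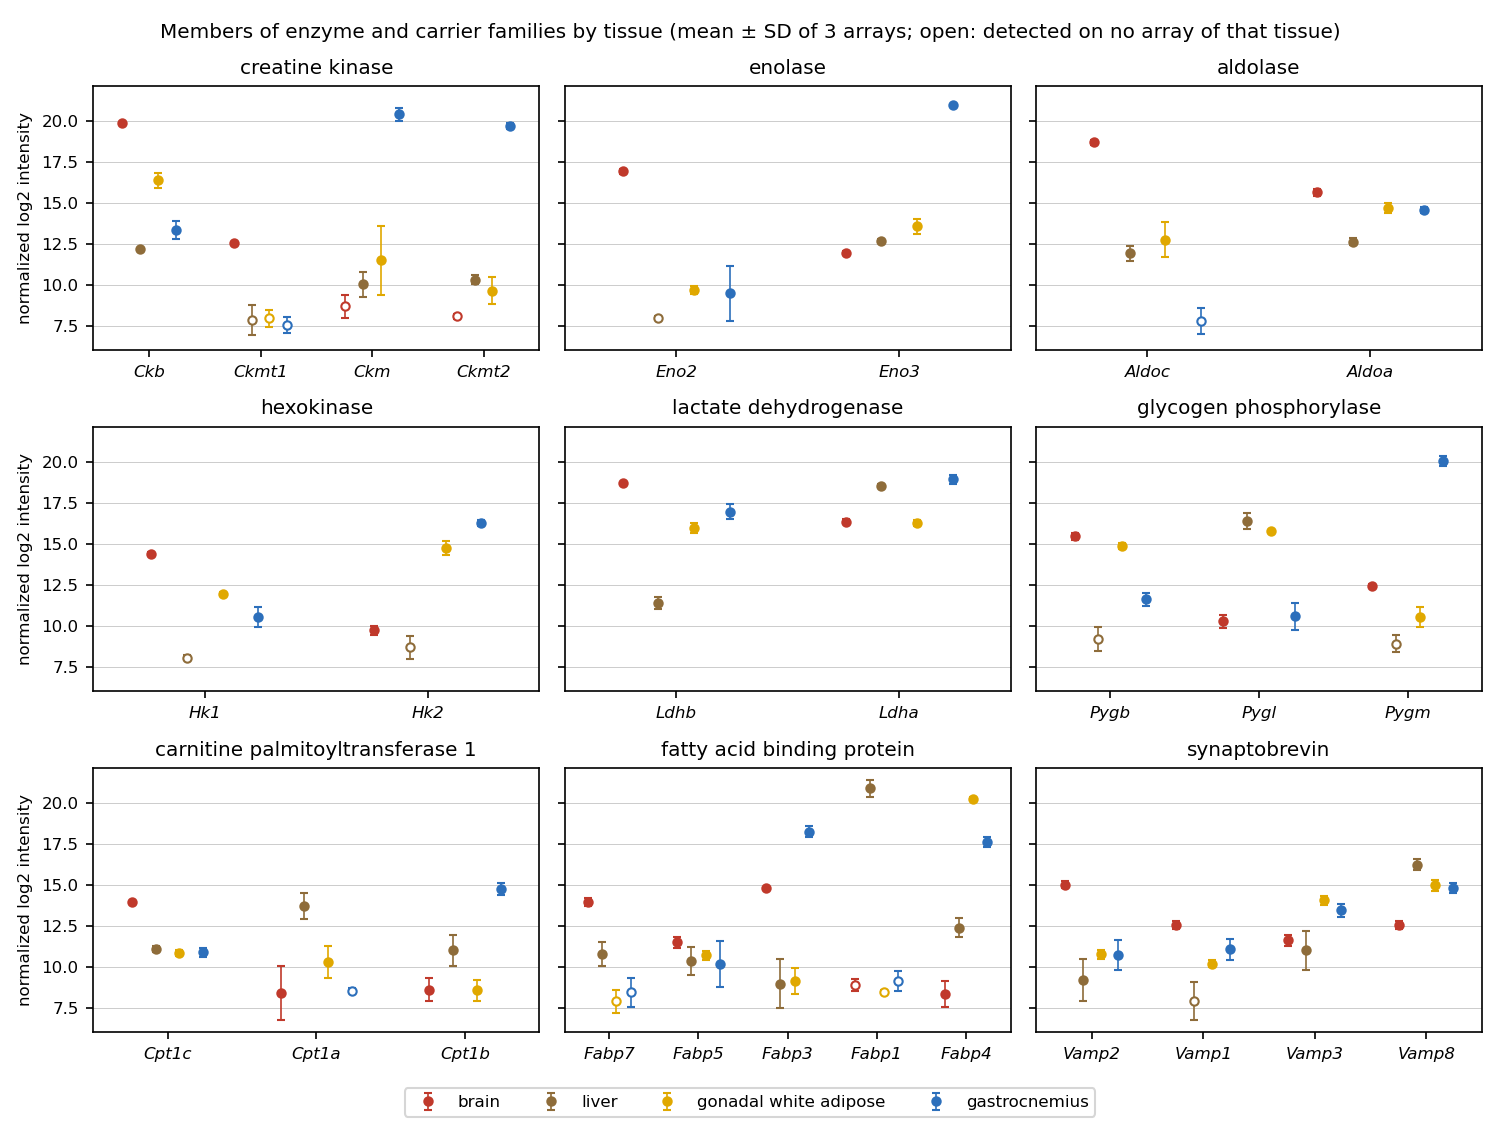
Normalized log2 intensity (y axis, mean ± SD of 3 arrays) of the members of 9 gene families in the 4 tissues of C57BL/6J, with open symbols where no array of a tissue detected the probe. In most panels 1 member peaks in brain (for example Ckb, Eno2, Cpt1c) and another in liver, adipose or gastrocnemius. In the aldolase panel both members peak in brain.

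Fatty acid oxidation was among the groups furthest below the other tissues. Of 27 tested genes 23 were lower, 3 higher and 1 not called, 15 were below each other tissue, and the median was -2.98. Acaa1b, a peroxisomal thiolase gene, was lower at -5.46 ± 0.27 log2 units, Ehhadh at -5.12 ± 0.35, the mitochondrial import gene Cpt2 at -4.29 ± 0.16 and Pdk4, which restrains glucose oxidation, at -4.17 ± 0.30. Cpt2 measured 13.10, 13.06 and 12.70 in brain and at least 16.36 on every other array.

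The 3 genes of that group that were higher were Cpt1c, Oxct1 and Ppargc1a. Cpt1c, the carnitine palmitoyltransferase 1 form known from neurons, measured 13.86, 13.94 and 14.03 in brain and 10.59 to 11.25 elsewhere, 7.22-fold above liver. Cpt1a and Cpt1b, the liver and muscle forms, were lower at -2.42 ± 0.58 and -2.82 ± 0.41 log2 units. Oxct1, which activates ketone bodies, was higher than the mean by 1.06 ± 0.30, with means of 13.17 in brain, 14.29 in gastrocnemius, 12.96 in adipose and 9.08 in liver, where no array detected it. Ppargc1a, a coactivator of mitochondrial genes, was higher by 1.52 ± 0.27.

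Genes of brain lipid synthesis and transport were mostly higher, with 19 of 26 tested genes higher, 3 lower and 4 not called, a median of 2.82 and a matrix median of 0.99. Cyp46a1, which hydroxylates cholesterol for export from neurons, was 90.2-fold above liver and higher than the mean by 7.19 ± 0.55 log2 units. The desaturase Scd2 was 2.69-fold above adipose, while Scd1 was lower at -4.73 ± 0.44 and measured a mean of 11.15 in brain, 17.07 in liver and 19.51 in adipose. St8sia3, a ganglioside sialyltransferase gene, was higher by 4.81 ± 0.39. Fabp7, the fatty acid binding protein of glia, was 8.93-fold above liver, whereas Fabp1, Fabp3 and Fabp4 peaked in liver at 20.87, gastrocnemius at 18.24 and adipose at 20.23. Cholesterol synthesis changed less, with 5 of 14 tested genes higher, 2 lower and 7 not called, and none of them above or below each other tissue. Sqle, a rate-controlling step of that pathway, was higher by 2.60 ± 0.52.

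Lists of oxidative phosphorylation, ribosome and proteasome genes had medians near 0 against the mean of the other tissues, which hides opposite differences by tissue. Of 36 tested genes of oxidative phosphorylation 8 were higher, 5 lower and 23 not called, with a median of 0.12 that turned to -0.10 and -0.07 under the median-based scalings and -0.17 in the matrix. Its medians were 0.26 against liver, 1.16 against adipose and -1.13 against gastrocnemius. Cox8a was higher by 2.30 ± 0.15 log2 units, while the succinate dehydrogenase subunit Sdha was lower at -0.88 ± 0.19. Of 27 tested cytosolic ribosomal protein genes 8 were higher, near the 27.5 percent of all tested genes, 7 lower and 12 not called. Their median of 0.26 turned to -0.31 and -0.28 under those scalings and -0.31 in the matrix. By tissue, the medians were 0.71 against liver and -0.16 against both adipose and gastrocnemius. Of 22 tested proteasome genes 3 were higher, 5 lower and 14 not called, with a median of -0.20, near that of all genes.

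Antigen presentation was lower in brain. Of 12 tested genes of MHC class I and antigen processing, 11 were lower and 1 higher, 7 were below each other tissue, and the median was -2.59. H2-K1 measured 13.02, 13.43 and 12.99 in brain, 15.02 to 15.25 in gastrocnemius, 17.63 to 17.88 in adipose and 18.05 to 18.43 in liver, and was lower at -3.89 ± 0.13 log2 units. H2-Q7 and H2-Q10 were lower at -3.55 ± 0.15 and -5.40 ± 0.26. The class I genes are near-identical copies, and which of them a probe reads is uncertain. Psmb10, an immunoproteasome subunit, was the 1 member higher, at 0.68 ± 0.21, and lost its call without brain array 2.

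Of 10 tested genes of MHC class II and lymphocytes, 0 were higher, 6 lower and 4 not called, with a median of -1.41, a 6-array median of -4.02 and a matrix median of -3.85. The class II genes H2-Aa, H2-Eb1 and H2-Ab1 and their chaperone Cd74 were lower at -4.45 ± 0.38, -4.14 ± 0.30, -3.90 ± 0.35 and -4.42 ± 0.30 log2 units, each below every other tissue. Cd74 measured 11.00, 10.28 and 10.67 in brain and at least 13.03 elsewhere.

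Defining genes of the other tissues were mostly lower in brain, which does not check the labels of those tissues. Of 20 tested hepatocyte genes 19 were lower and 1, Ttr, was higher, with a median of -3.54, from -10.67 against liver, -0.21 against adipose and -0.11 against gastrocnemius. Cyp2e1, a cytochrome that is high in liver and also measured 20.40 in adipose, was lower at -8.82 ± 0.41 log2 units, and the acute phase gene Hp at -7.01 ± 0.36. Of 20 adipocyte genes 17 were lower, 2 higher and 1 not called, with a median of -3.24. Fabp4 was lower at -8.38 ± 0.28, while Fasn, fatty acid synthase, was higher by 1.06 ± 0.20. Cidea, a lipid droplet protein gene, was detected on all 3 brain arrays, at 10.16, 9.84 and 10.60, and on none of the other 9, so its call as the other higher member was favoured by the filter. Of 21 muscle fibre genes 17 were lower, 3 higher and 1 not called, with a median of -4.46, including Tnnt3 and Des, both at -5.55. The medians of the muscle fibre list were -10.39 against gastrocnemius, -2.01 against adipose and 0.21 against liver.

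Immediate early genes, which neurons switch on within minutes of activity, were split. Of 19 tested genes 9 were higher, 4 lower and 6 not called, with a median of 0.10. The sign of that median was not stable: it was -0.13 without adipose array 2, -0.09 without brain array 1, -0.08 without liver array 1, -0.01 without gastrocnemius array 1, 0.37 and 0.40 under the median-based scalings, -0.41 as the 6-array median and -0.24 in the matrix. Egr4 measured 15.02, 14.94 and 14.34 in brain and 7.36 to 9.24 elsewhere, 92.0-fold above adipose, where 1 array detected it. Nr4a2 was at least 14.4-fold above gastrocnemius and Egr1 5.18-fold above liver. Ier2 was lower than in each other tissue, at -1.83 ± 0.25 log2 units. Fos was higher than the mean by 2.45 ± 0.46, with means of 13.03 in brain and 12.50 in gastrocnemius.

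Of 15 tested imprinted genes known from brain, 10 were higher, 1 lower and 4 not called, and 2 were detected on brain arrays only. Their median was 1.19 and the matrix median 0.29. Nap1l5 measured 15.74, 15.91 and 15.63 in brain and was detected on no other array, at least 242-fold above gastrocnemius. Ndn, the necdin gene of neurons, measured 14.66, 14.97 and 14.84 in brain and 8.16 to 10.77 elsewhere, 22.3-fold above adipose. Nnat, neuronatin, had means of 16.06 in adipose and 15.81 in brain, and the arrays of these tissues overlapped.

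The SNARE proteins that fuse vesicles gave a contrast within 1 family. Vamp2 and Vamp1, the synaptic synaptobrevins, were 18.7-fold above adipose and 2.79-fold above gastrocnemius. Vamp8, which serves secretion outside neurons, was below each other tissue, by 4.63-fold under gastrocnemius. Snap23, the widely expressed relative of Snap25, measured 10.84, 10.85 and 10.93 in brain and 12.96 to 13.45 elsewhere, and was lower at -2.41 ± 0.16 log2 units. Snap29 was lower at -1.76 ± 0.23.

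The brain arrays were alike for most groups and apart for a few. The mean level of a gene list spread by more than 0.5 log2 units over the 3 brain arrays for 6 of 45 lists, and by as little as 0.03 for the hindbrain and spinal cord list. Granulocyte and blood genes spread by 2.42, with brain array 1 lower than the brain mean by 1.53 and arrays 2 and 3 above it. S100a9, a granulocyte alarmin, measured 11.84, 15.24 and 15.33, and S100a8, its partner, 9.81, 13.26 and 13.14. The list had 4 of 8 tested genes higher in brain, 2 lower and 2 not called. Its median of 1.34 became 2.03 without brain array 1, 0.65 as the 6-array median and 0.008 in the matrix.

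The pituitary hormone gene Gh measured 10.21, 13.81 and 10.74, high on brain array 2 alone. The pituitary list had 2 tested genes, Gh, which was higher at 3.30 ± 0.71 log2 units, and Lhb, which was lower. Its median of 0.90 became 0.28 without brain array 2, 1.37 without brain array 1, -1.49 as the 6-array median and -1.06 in the matrix. Hepatocyte genes lay 0.51 above the brain mean on brain array 1, with Apoa2 at 12.46, 10.44 and 9.81. Col8a1, a collagen gene of vessels and other tissues, had the widest range, at 14.79, 10.40 and 10.15, and was not called. The part of blood, pituitary or other neighbouring tissue in these values was not tested.

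**Figure D4:**
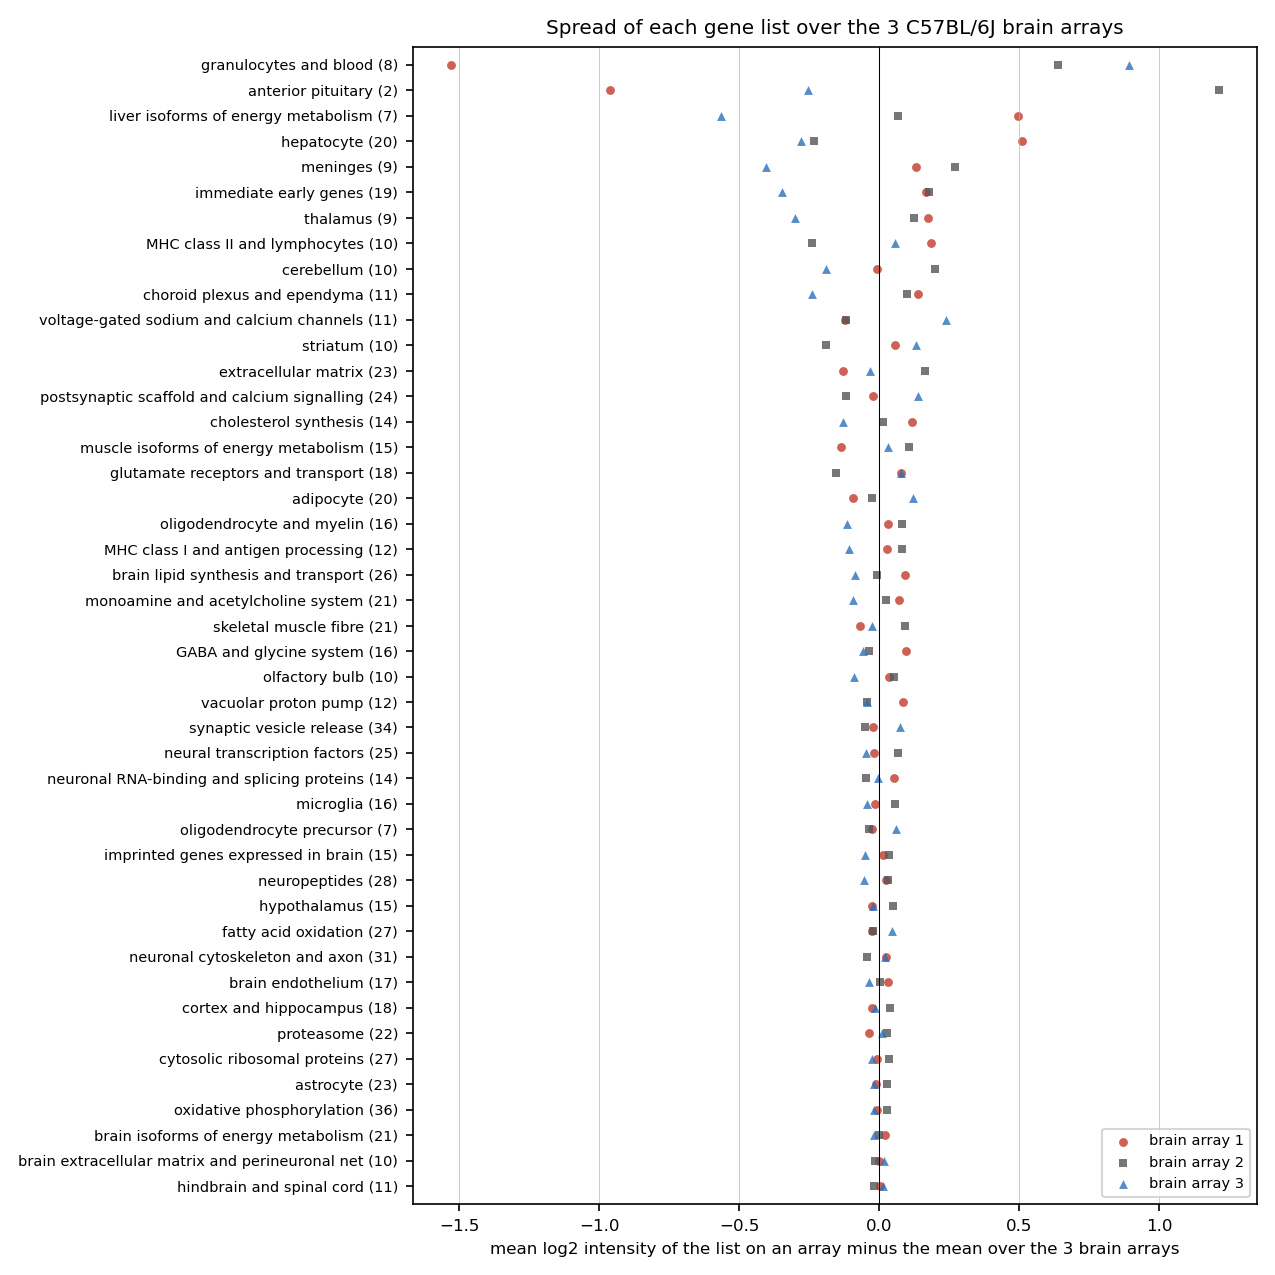
Mean log2 intensity of each gene list on each of the 3 C57BL/6J brain arrays, minus the mean over these arrays (x axis), with lists ordered by their spread and the number of tested genes in brackets. Granulocytes and blood (2.42) and anterior pituitary (2.17) spread most, and the 10 neuronal lists stay within 0.36.

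The congenic arrays gave the same contrast in other animals. A 4th congenic brain array, outside the named triplicate, was left out here and in the strain comparison below, except in an alternative run. With the 3 named congenic brain arrays and 9 arrays of the other tissues, 5049 of 20480 probes were higher in brain, 24.7 percent, and 5306 were lower, 25.9 percent. Above each other tissue were 2737 probes, 13.4 percent, and below each 1499, 7.32 percent. Of 5623 probes called higher in B6 and tested in the congenic, 4598 were called higher again, 81.8 percent, and 0 were called the other way. Of 6069 called lower, 4456 were lower again, 73.4 percent, and 0 were opposite. Of the probes above each other tissue, 2434 were shared, which is 77.4 percent of those in B6 and 88.9 percent of those in the congenic.

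Named genes and gene lists followed. Of 254 named genes called in B6 and tested in the congenic, 226 were called the same way and 0 the opposite way. Among 10143 genes tested in both, 25.8 percent were called higher and 31.2 percent lower in the congenic. Synaptic vesicle release had 32 of 34 genes higher and a congenic median of 5.02, neuropeptides 27 of 28 and 4.90, and fatty acid oxidation 23 of 27 lower and -3.28. The median had the same sign in both strains for 43 of 45 lists. The exceptions were oxidative phosphorylation, at 0.12 in B6 and -0.07 in the congenic, and granulocytes and blood, at 0.87 and -0.32 over the 7 genes tested in both. The plot of list medians in both strains shows them side by side.

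**Figure D5:**
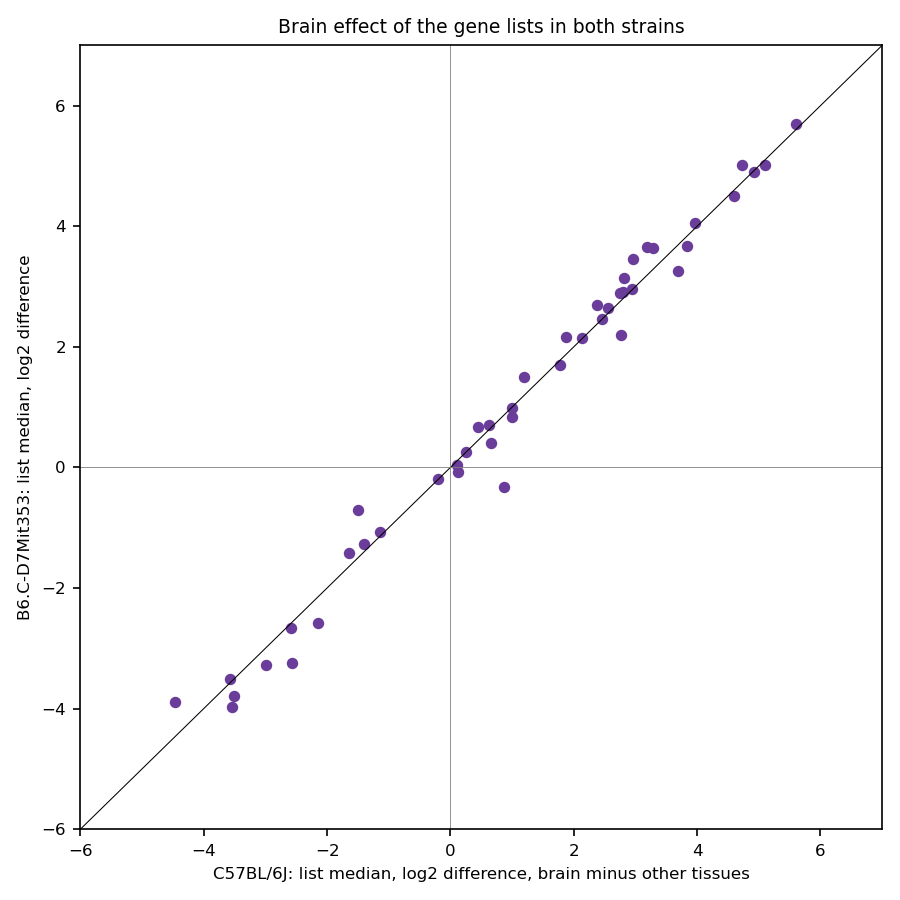
Median log2 difference of brain minus the other tissues for each of the 45 gene lists in C57BL/6J (x axis) and in the congenic strain B6.C-D7Mit353 (y axis), over the genes tested in both, with the line of equality. The points lie near the line, and the largest difference between strains is 1.19.

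Whether the brain difference itself depends on strain was tested as an interaction over 24 arrays. Of 19378 probes tested in both strains, 0 were called by limma, 0 percent, while 840 had an unadjusted p under 0.05, and the lowest adjusted p was 0.290. The 5 genes of smallest p were Ifi205, Retnla, Mnd1, Pla2g4a and Cd163. Ifi205, an interferon-inducible gene, had a brain difference of -3.56 log2 units in B6 and -6.05 in the congenic, which differ by 2.49 ± 0.45 (SE), and it measured 10.03, 10.57 and 10.07 on the B6 brain arrays. Retnla, a resistin-like gene of macrophages, had differences of -4.56 and -7.09. None of these differences passed the adjustment over all 19378 probes.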

How the data were processed

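The deposited array files give, per the file headers, a linear signal intensity for each probe and a signal to noise score, from 1 array per sample. The deposited series matrix holds the authors' log2 values, which equal log2 of that signal plus 1 constant per array and are blank where the score is under 3. The sources used here do not state what those constants are for, nor the array software, background step or genome build. Matrix column medians ran from 11.37 to 12.12.

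Signals of the 12 C57BL/6J arrays were background-corrected with normexp (offset 50), taken to log2 and quantile normalized. Probes with a score of at least 3 on at least 3 arrays were kept, 21134 of 32996. limma 3.58.1 in R 4.3.3 fitted tissue means with an intensity trend, and Benjamini-Hochberg adjustment ran over all kept probes at a threshold of 0.05. Differences are brain minus the mean of the other 3 tissue means.

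The platform annotation named 1 gene for 14401 probes, several for 247 and none for 18348. Each gene was read from its probe of highest mean signal. The members and the gene lists were chosen with earlier results of these data known, and lists share members. Named genes were the 10 furthest above and the 10 furthest below each other tissue, the 4 largest differences and every opposite call of each list, all members of the enzyme and protein families, the 5 smallest p-values of the strain comparison and the 5 widest ranges over brain arrays. Marker genes and those whose choice is stated were named beside these. Sequences come from RefSeq promoter windows on GRCm38.p6.

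On simulated data for the 21134 probes, the contrast recovered 26, 68, 86 and 100 percent of changes of 1, 2, 3 and 4 log2 units, and 10 of its 150 calls were false. The simulation changed only a small share of probes, used normal noise and gave the other tissues equal means. The measured arrays differ in the share changed and in the tissue means, so these rates do not carry over to them. Numbers in the titles are shared by a liver and a muscle array, a liver and an adipose array, and a muscle and an adipose array, whose residuals correlated at 0.0064, 0.0035 and -0.020. No brain array shares a number. One adipose array is listed among livers in the design text and was used as its title and source name give it. Alternatives covered scaling, background, the deposited matrix, filters, the variance model, the block and each left-out array.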

Additional observations from a re-analysis of the deposited data

How the results depend on the processing

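Probes called between brain and the mean of the other tissues numbered 12123, and 7285 in the deposited matrix, where 12183 probes could be tested. Probes above each other tissue numbered 3144, against 1521 in the matrix and 1827 with detection required on 6 arrays. Both settings drop the 723 probes detected on brain arrays only, of which 620 were above each. Other probes are dropped too: the matrix could test only those with a value in every tissue and on at least 6 arrays. Leaving out 1 array at a time gave 10332 to 12359 called, 2737 to 3105 above each and 1455 to 1793 below each. With the title number as a replicate block, 12128 probes were called, 3143 above each and 1793 below each, and no named gene changed its call. No named gene that was called in the main or the alternative fit turned direction, where it could be tested. In the matrix 123 named genes kept their status, 8 lost their call and 1 gained one. With detection required on 6 arrays 191 kept their status. The other named genes could not be tested under these settings. Of 264 named genes, 9 and 7 lost their call under the median-based scalings and 12 to 14 without a brain array. Probes called higher were 48.2 percent of those called, and 50.5 and 50.6 percent under those scalings. Gene list medians were less stable: of 45, 25 moved by over 1.5 times and 8 changed sign in the matrix, and 15 and 4 did with detection on 6 arrays, the thalamic median going from 3.70 to -0.01 and -0.12. The strain comparison called 0 probes under each alternative run, with 786 to 1311 at an unadjusted p under 0.05. Signal over background limits low genes: folds over a tissue without detection are marked "at least" but, like the fitted log2 differences there, are approximate.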
